A study of Mus musculus with 32 samples.

Results

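Apoe and 8 other genes that carry, move or modify lipids and sterols outside and inside cells were measured by RNA-seq in hippocampus (HPC), meninges and sorted meningeal lymphatic endothelial cells (mLECs) of mice with amyloid pathology. The 9 genes, Apoe, Clu, Apod, Lpl, Abca1, Abcg1, Lrp1, Soat1 and Ch25h, were taken by symbol from the 22337 genes of the deposited tables, and all 9 were found. The series held 32 samples from male C57BL/6J mice at 6 months of age. The groups were WT mice, which are littermates without the transgenes, 5xFAD mice without treatment, and 5xFAD mice given repeated transcranial near-infrared light (5xFAD+L). The 5xFAD transgenes carry mutations of familial Alzheimer's disease and are under control of Thy1 sequence, which is active mainly in neurons, so the mice are an overexpression model. Mice without treatment were anesthetized in the same way and kept under indoor light, so all groups shared the anesthesia. HPC came from 4 mice of each group, and meninges and mLECs came from 4 WT, 3 5xFAD and 3 5xFAD+L mice. The mLECs were sorted from the meninges of individual mice as live CD45- CD31+ PDPN+ cells. Light-treated WT mice were not analysed here.

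In the brain, lipids travel between cells on particles built around apolipoproteins. Apolipoprotein E, made mainly by astrocytes and also by microglia, is the best known of these, and clusterin, the product of Clu, is another. The transporters Abca1 and Abcg1 load cholesterol onto the particles, Lrp1 takes particles up, Lpl releases fatty acids from them, Soat1 esterifies cholesterol for storage and Ch25h makes 25-hydroxycholesterol. Oxysterols of this kind activate the LXR receptors, which in turn raise the transcription of Apoe, Abca1 and Abcg1.

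RefSeq promoters were at hand for 6 of the 9 genes, namely Apoe, Apod, Abca1, Lrp1, Soat1 and Ch25h. The 250 bases before the start are shown for Apoe, Abca1 and Ch25h, the genes among these that were higher in 5xFAD than in WT HPC. They run 5′ to 3′ on build GRCm38.p6, and capitals mark matches to 4 motifs that were searched on both strands.
Apoe (chr7:19699189-19699438, minus strand): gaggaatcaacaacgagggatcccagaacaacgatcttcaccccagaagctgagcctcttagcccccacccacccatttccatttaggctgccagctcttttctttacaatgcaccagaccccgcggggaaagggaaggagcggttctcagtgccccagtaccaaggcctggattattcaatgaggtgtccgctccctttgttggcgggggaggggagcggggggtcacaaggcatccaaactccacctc
Abca1 (chr4:53159896-53160145, minus strand): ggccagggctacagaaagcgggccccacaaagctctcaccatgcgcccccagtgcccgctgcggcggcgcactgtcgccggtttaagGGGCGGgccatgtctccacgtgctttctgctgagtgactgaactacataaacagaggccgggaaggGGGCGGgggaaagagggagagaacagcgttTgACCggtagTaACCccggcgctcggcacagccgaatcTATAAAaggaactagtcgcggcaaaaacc
Ch25h (chr19:34475149-34475398, minus strand): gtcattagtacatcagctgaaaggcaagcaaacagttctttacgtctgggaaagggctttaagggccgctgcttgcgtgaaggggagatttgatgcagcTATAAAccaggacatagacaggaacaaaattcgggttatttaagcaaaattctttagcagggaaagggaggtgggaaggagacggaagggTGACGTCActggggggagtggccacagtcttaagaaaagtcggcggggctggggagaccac
The first motif was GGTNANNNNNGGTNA, a relaxed form of the DR4 element that LXR receptors bind. The others were TGACGTCA, the cAMP response element, the letters TATAAA of a TATA box, and a GC box. The GC box was searched as GGGCGG. The DR4-type motif was found in the Abca1 window alone among the 6 genes, on the minus strand of the window with its first base 67 bases before the start. It was present in 0.621% of the 32851 promoters of the same length. The cAMP response element was found in Ch25h, 61 bases before the start, and in 1.55% of all promoters. The Abca1 and Ch25h windows each held the TATA letters, 29 and 151 bases before the start, a motif found in 12.4% of promoters. Abca1 held the GC box at 2 places, against 32.7% of promoters with at least 1, and no motif overlapped another. The Apoe window shown held none of the 4 motifs, which says only that these letters are not in this window, and another Apoe start in the same source had the TATA letters.

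Each HPC sample had 13952825 to 23856476 counts in total, each meninges sample 6601143 to 14708202 and each mLEC sample 14231415 to 24207326. Levels are given as FPKM, which scales reads by transcript length and library size. Differences are log2 fold changes of edgeR, fitted on counts, with their standard errors (SE), and a gene was called at a Benjamini-Hochberg adjusted p below 0.05 over all tested genes of the tissue. Some libraries stood apart. Among the HPC samples, the summed FPKM of 6 choroid plexus markers was 2824 in WT replicate 2, 3219 in 5xFAD replicate 1 and 2943 in 5xFAD replicate 2, against 36.8 to 702 in the other 9. Among the meninges samples, 5xFAD+L replicate 1 had the highest sums of leukocyte markers, 4348, and red blood cell markers, 28450, and choroid plexus sums were between 15790 and 49660 in every sample. Among the mLECs, the sum of 8 lymphatic markers was 227 in WT replicate 2 and 302 in WT replicate 4, against 1447 to 9930 elsewhere.

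In HPC of 5xFAD mice, Apoe, Clu, Abca1 and Ch25h were higher than in WT mice, by 1.65-, 1.56-, 1.45- and 8.19-fold. These 4 of the 9 genes were called and none was called lower, where 6.48% of the 12981 tested genes were called higher and 8.54% in either direction. Genes were tested where 3 or more samples of the tissue had an FPKM of 1 or more. Ch25h was below an FPKM of 1 in every WT sample. It thus entered the test, and the count of 4, only through the 5xFAD and 5xFAD+L samples, where it was higher. The median log2 fold change was 0.53 over the 9 genes and 0.015 over all tested genes. At a change of at least 2-fold, the rule that the study added, Ch25h alone was called, against 4.28% of all genes.

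**Figure D1:**
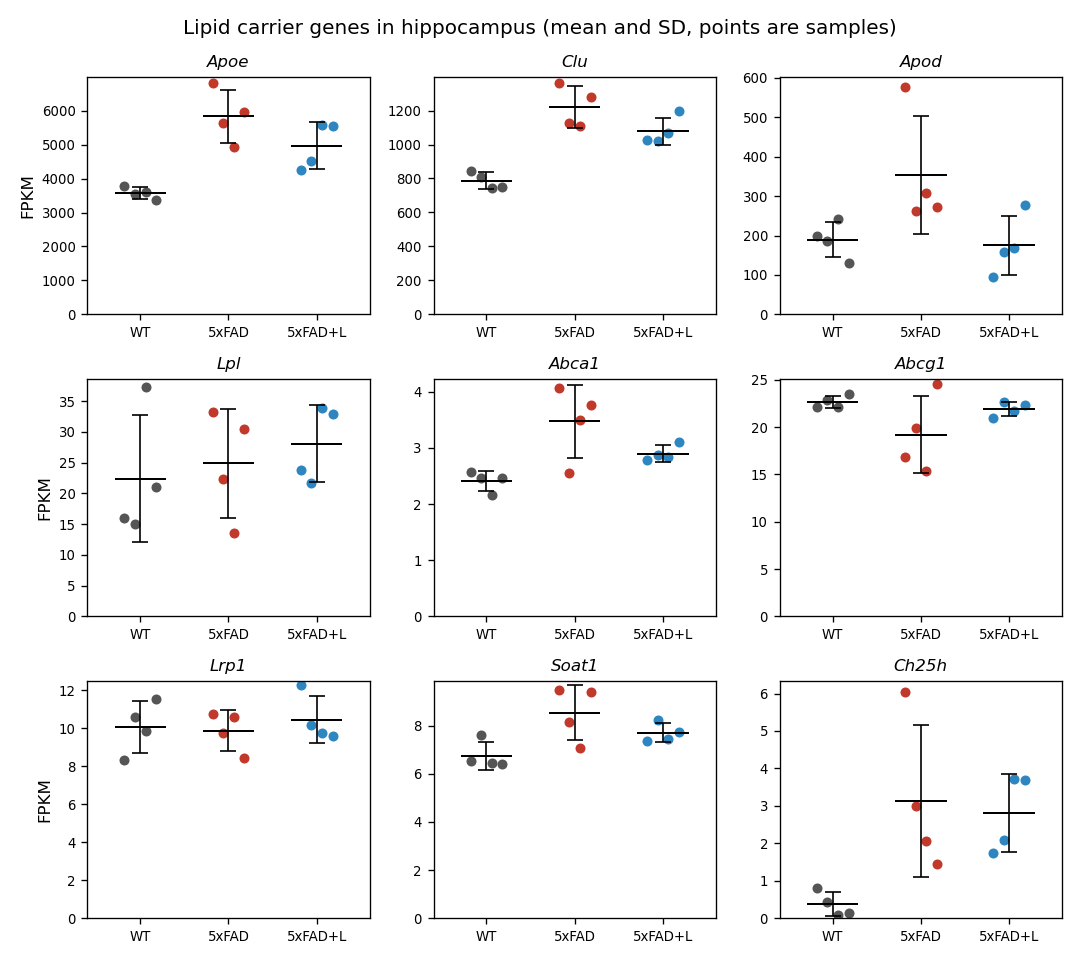
FPKM of the 9 genes in HPC of WT, 5xFAD and 5xFAD+L mice. Each point is 1 sample, horizontal lines are means and bars are SD (n = 4 per group). The 5xFAD points of Apoe, Clu, Apod and Ch25h lie above every WT point.

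Apoe (ENSMUSG00000002985, chr7:19696109-19699188, minus strand, build GRCm38) was the most abundant of the 9 genes per length in all 3 tissues. In HPC its FPKM was 3785, 3536, 3596 and 3378 in the 4 WT samples, and 6816, 5638, 4923 and 5976.5 in the 5xFAD samples. The 5xFAD+L samples had 4239.6, 4509.97, 5567 and 5541. Every 5xFAD and 5xFAD+L sample was above the highest WT sample, and the 5xFAD+L samples overlapped the 5xFAD samples. The log2 fold change of 5xFAD against WT was 0.72 (SE 0.13, adjusted p = 0.00371).

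Clu (ENSMUSG00000022037, chr14:65968483-65981547, plus strand), which encodes a secreted chaperone that also binds lipids, followed the same order of groups. Its FPKM was 846, 811, 742 and 751 in WT, 1365, 1126, 1108 and 1278 in 5xFAD and 1024, 1022, 1068 and 1196 in 5xFAD+L samples. The 3 groups were narrow, and both 5xFAD groups lay above WT with no overlap. The difference between 5xFAD and WT was 0.64 on the log2 scale (SE 0.10, adjusted p = 0.00146).

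Ch25h (ENSMUSG00000050370, chr19:34473778-34475164, minus strand) was near the limit of detection in WT HPC. Its FPKM was 0.80, 0.44, 0.10 and 0.15 in WT samples, from 27, 11, 2 and 4 counts. It was 6.03, 3.00, 2.06 and 1.46 in 5xFAD samples and 1.74, 2.09, 3.71 and 3.69 in 5xFAD+L samples, from 37 to 172 counts. All samples of both 5xFAD groups were above all WT samples. The log2 fold change of 5xFAD against WT was 3.03 (SE 0.59, adjusted p = 0.00562), and the low WT counts limit how well its size is known. It was 3.77 without WT replicate 1, 2.20 without the 3 libraries of high choroid plexus markers and 1.503 with limma on log2(FPKM + 1), and all alternatives run lay between 1.503 and 3.77.

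Abca1 (ENSMUSG00000015243, chr4:53030787-53159895, minus strand) had an FPKM of 2.57, 2.47, 2.16 and 2.47 in WT, 4.07, 2.56, 3.49 and 3.77 in 5xFAD and 2.79, 2.87, 2.83 and 3.11 in 5xFAD+L samples. Only 5xFAD replicate 2 fell within the WT range. The log2 fold change was 0.53 (SE 0.13, adjusted p = 0.0231). Its adjusted p was between 0.0508 and 0.0718 when any 1 of the 4 WT replicates or 5xFAD replicate 1 was left out and the call was lost.

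Apod (ENSMUSG00000022548, chr16:31296192-31314808, minus strand), a lipocalin that binds small hydrophobic molecules, had an FPKM of 199, 187, 241 and 131 in WT samples. It was 578, 262, 307 and 272 in 5xFAD and 94.8, 157, 169 and 278 in 5xFAD+L samples. All 5xFAD samples were above all WT samples, but 5xFAD replicate 1 was far above the other 3. The log2 fold change of 0.93 (SE 0.33) did not pass, with an adjusted p of 0.101. Apoe, Clu, Apod and Ch25h were thus the 4 genes whose 5xFAD samples all lay above the WT samples, against 8.75% of all tested genes. Of these, Ch25h was tested only through the 5xFAD and 5xFAD+L samples, where it was higher.

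The remaining 4 genes overlapped between 5xFAD and WT HPC. Abcg1 (ENSMUSG00000024030, chr17:31057675-31117988) had means of 22.6 ± 0.667 (SD, n = 4) in WT and 19.2 ± 4.06 (SD, n = 4) in 5xFAD samples, a log2 fold change of -0.24 (SE 0.12, adjusted p = 0.229). Without 5xFAD replicate 4 it was called lower, at -0.37 with an edgeR adjusted p of 0.0241. Soat1 (ENSMUSG00000026600, chr1:156424525-156474331) had 6.74 ± 0.573 and 8.52 ± 1.14 (SD, n = 4 each) and a log2 fold change of 0.20 (SE 0.11, adjusted p = 0.276). Lpl (ENSMUSG00000015568, chr8:68880491-68907448) ranged from 15.1 to 37.3 in WT and from 13.5 to 33.2 in 5xFAD samples, a log2 fold change of 0.17 (SE 0.31, adjusted p = 0.781). Lrp1 (ENSMUSG00000040249, chr10:127538161-127621148) had 10.1 ± 1.36 and 9.87 ± 1.06 (SD, n = 4 each). Its log2 fold change was 0.17 on counts (SE 0.11, adjusted p = 0.344) and -0.02 on log2(FPKM + 1), so its direction depended on the unit.

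Cell type markers also differed between the groups. All 9 microglial markers, such as Cx3cr1 and Tmem119, and all 8 markers of plaque-associated microglia, such as Cst7 and Trem2, were called higher in 5xFAD than in WT HPC. The summed FPKM of the microglial markers was 346.5 to 379 in WT, 1095 to 1690 in 5xFAD and 838 to 1430 in 5xFAD+L samples, with none of them at 0. Of the 8 astrocyte markers 4 were called higher and none lower, and the sum of the 8 was 1678 to 1956, 2243 to 4212 and 2197 to 2843 in these groups. Mean FPKM of the astrocyte markers Slc1a2 and Gja1 was 172 and 121 in WT and 142 and 111 in 5xFAD samples. The choroid plexus sum was high in the 1 WT and 2 5xFAD samples named above, and meningeal fibroblast markers summed to 40.5 to 74.7 in WT, 47.9 to 127 in 5xFAD and 21.97 to 37.9 in 5xFAD+L samples. Among the 4 light-treated mice, replicates 1 and 2 had the lower microglial sums, 838 and 845, and the lower Apoe, and replicates 3 and 4 the higher sums, 1430 and 1336, and the higher Apoe and Ch25h. Abca1 did not follow this order, at 2.87 in replicate 2 and 2.83 in replicate 3. In untreated 5xFAD mice, replicate 4 had a microglial sum of 1293, above those of replicates 2 and 3, but the lowest Ch25h, 1.46. The part of cell composition in the results on the 9 genes was not tested, and in bulk tissue fewer cells of a type and less RNA per cell cannot be told apart.

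Without the 3 libraries of high choroid plexus markers, which leaves 3 WT and 2 5xFAD samples, Clu and Abca1 were called, at 0.60 (SE 0.13) and 0.58 (SE 0.13) and edgeR adjusted p values of 0.0300 and 0.0303. Apoe was then higher by 0.59 on the log2 scale (SE 0.17, adjusted p = 0.0807) and Ch25h by 2.20 (SE 0.68, adjusted p = 0.106), so the 4 calls became 2. The estimate of Lpl turned to -0.23 (SE 0.39).

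Light-treated and untreated 5xFAD mice did not differ past the threshold in any of the 9 genes in HPC. edgeR called 0 of 9, as did DESeq2 and limma, where 0.455% of all tested genes were called by edgeR, a count of 59 that was between 0 and 269 when 1 replicate was left out, and 1 of 9 had an unadjusted p below 0.05, against 18.3% of all genes. That gene was Apod, with a log2 fold change of -1.02 (SE 0.33, adjusted p = 0.144). Its 5xFAD+L samples overlapped the 5xFAD samples, because replicate 4 at 278 exceeded 2 of the untreated samples. This comparison uses the same untreated 5xFAD samples as that of 5xFAD against WT, with the opposite sign, so the estimates here are not independent of the calls there. Estimates for the genes called in 5xFAD against WT were -0.24 for Apoe (SE 0.13), -0.18 for Clu (SE 0.10), -0.26 for Abca1 (SE 0.13) and -0.18 for Ch25h (SE 0.51), with adjusted p values from 0.302 to 0.882. The other 4 estimates were 0.20 for Lpl, 0.20 for Abcg1, -0.05 for Lrp1 and -0.16 for Soat1. The estimate for Ch25h changed sign to 0.69 (SE 0.60) without the 3 libraries of high choroid plexus markers. None of the 9 genes separated these groups completely, which 7.63% of tested genes did.

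Against WT mice, light-treated mice were higher in Clu, by 0.46 on the log2 scale (SE 0.10, adjusted p = 0.0217), and in Ch25h, by 2.86 (SE 0.59, adjusted p = 0.0137). These 2 of 9 stand beside 3.59% of tested genes called in either direction. Here too, Ch25h was tested only through the 5xFAD and 5xFAD+L samples, where it was higher. Apoe was at 0.48 (SE 0.13, adjusted p = 0.0665) and Abca1 at 0.27 (SE 0.13, adjusted p = 0.326), and the samples of both lay above all WT samples. With Clu and Ch25h they made 4 of 9 genes without overlap, all higher, against 7.33% of all genes. DESeq2 also called Apoe. The Ch25h estimate was 3.59 without WT replicate 1 and 1.46 with limma on log2(FPKM + 1). Leaving out WT replicate 4 ended both calls, and without WT replicate 2 or 3 or 5xFAD+L replicate 3 or 4 the count fell to 1. This comparison shares its WT samples with the one of untreated 5xFAD mice, so the estimates of the 2 are not independent.

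**Figure D2:**
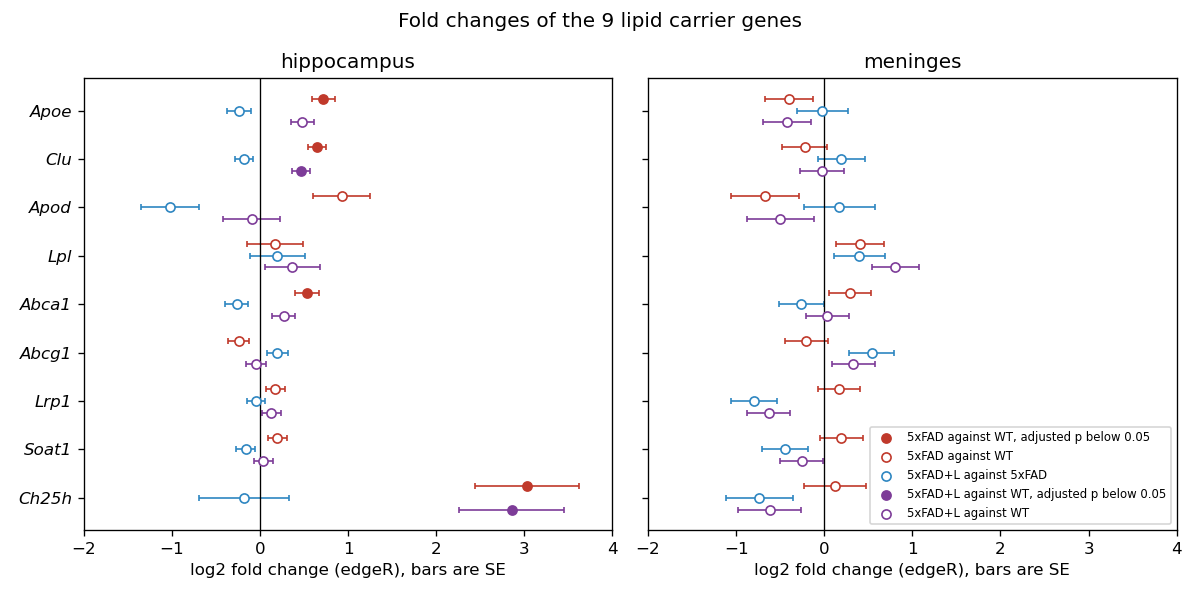
Log2 fold changes of the 9 genes from edgeR in HPC (left) and meninges (right), with SE as bars. Filled points have an adjusted p below 0.05. Filled points appear only in HPC, for Apoe, Clu, Abca1 and Ch25h in 5xFAD against WT and for Clu and Ch25h in 5xFAD+L against WT.

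The genes most alike to Apoe across the 12 HPC samples, by Pearson's r of log2(FPKM + 1) over the other 12980 tested genes, included Cd53 (r = 0.99), Arpc1b, Hvcn1 and Necap2. For Clu they were Cd14 (r = 0.99), Lpcat2, Vav1, Hexa and Arhgdib. For Ch25h they were Hcar2 (r = 0.96), Mcm3, Anxa3, Ccl4 and Pdcd1. The points share the 3 groups, so these values describe a common pattern over groups and libraries and have no p value.

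The other genes of lipid handling were followed as 5 lists. Of 14 tested receptors for lipoproteins and lipids, 2 rose in 5xFAD against WT HPC, where 6.48% of all tested genes were called higher and 8.54% in either direction. Among them was Trem2, a lipid-sensing receptor of microglia that is also among the plaque-associated markers above, which rose by 3.05 on the log2 scale (SE 0.29, adjusted p = 4.5e-05). Of 20 genes of sterol efflux and LXR signaling, Nr1h3, which encodes LXR alpha, rose by 0.90 (SE 0.24, adjusted p = 0.0353), and 19 did not pass, a share below that of all tested genes.

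Of 25 tested genes of cholesterol synthesis, 5 rose and none fell, against the same 6.48% of all genes called higher, and 1 rose without the 3 libraries of high choroid plexus markers. Stard4, a sterol transfer protein, rose by 0.90 (SE 0.19, adjusted p = 0.00908), Ebp by 0.54 (SE 0.12, adjusted p = 0.0111), Pmvk by 0.37 (SE 0.10, adjusted p = 0.0353) and Acat2 by 0.49 (SE 0.14, adjusted p = 0.0444). The median over the list was 0.38. Of 21 genes of sterol storage, oxysterol formation and lysosomal sterol handling, 4 rose and 1 fell. Npc2, which moves cholesterol out of lysosomes, rose by 1.15 (SE 0.19, adjusted p = 0.00159), and Plin2, a coat protein of lipid droplets, by 1.22 (SE 0.27, adjusted p = 0.0129). Hsd3b7, an enzyme of oxysterol and bile acid metabolism, rose by 0.80 (SE 0.17, adjusted p = 0.00942), and Gpnmb, a glycoprotein of lipid-laden phagocytes, rose by 2.27 (SE 0.52, adjusted p = 0.0153). Gramd1b, a sterol transporter of the endoplasmic reticulum, fell by 0.37 (adjusted p = 0.0295). Without the 3 libraries of high choroid plexus markers, the genes of these lists that were still called in 5xFAD against WT were Trem2, Stard4, Npc2 and Hsd3b7, and the cholesterol synthesis median was 0.21.

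Of 9 tested apolipoproteins and lipoprotein enzymes, Apool, a mitochondrial protein of the inner membrane despite its name, rose by 0.50 (SE 0.14, adjusted p = 0.0417), and 8 did not pass. None of the genes of the 5 lists was called between 5xFAD+L and 5xFAD HPC by edgeR. Without the 3 libraries of high choroid plexus markers, Plxna4 of the receptor list alone was called, higher in 5xFAD+L. In that fit edgeR called 161 of all 12802 tested genes. The comparison of 5xFAD+L with 5xFAD shares its 5xFAD samples with that of 5xFAD against WT. With all libraries, its median of the cholesterol synthesis list was -0.37, against -0.016 over all genes. The list median was -0.20 without those libraries. It was 0.014 in 5xFAD+L against WT. In that last comparison Trem2, Npc2 and Gpnmb were called higher, at 2.84, 0.87 and 2.36 on the log2 scale. Apoc4 was also called higher, from 1 count over the 4 WT samples and 2 to 32 counts in each 5xFAD+L sample, too few for a fold, and it was not called without the 3 libraries.

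**Figure D3:**
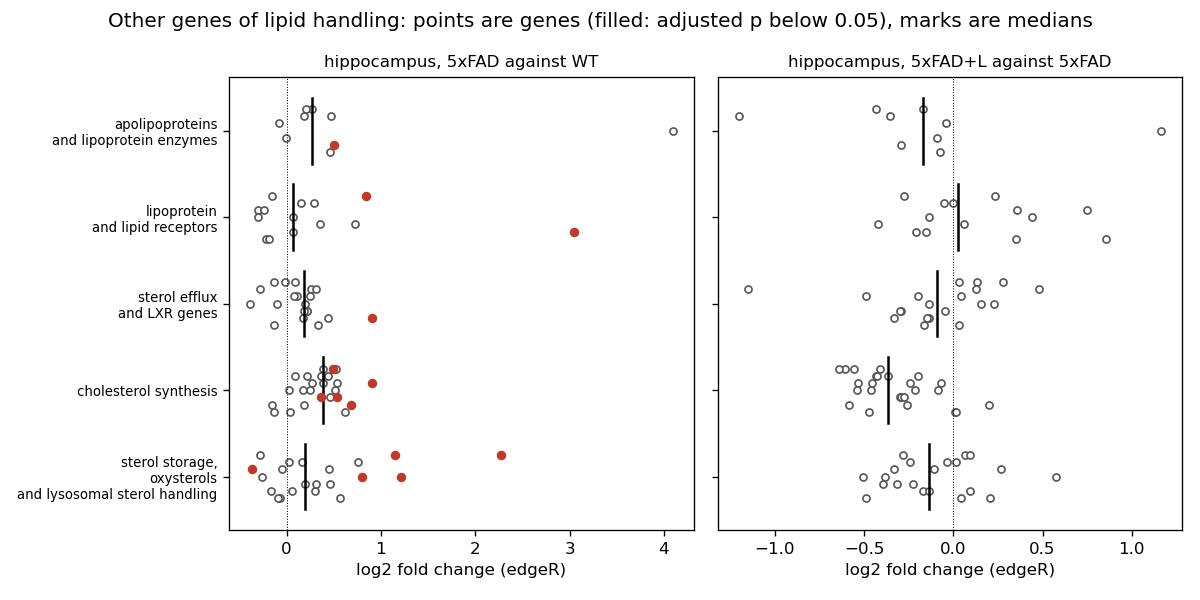
Log2 fold changes in HPC of the tested genes of 5 lists of lipid handling, for 5xFAD against WT (left) and 5xFAD+L against 5xFAD (right). Each point is 1 gene, filled points have an adjusted p below 0.05 and vertical marks are list medians. Filled points are present only on the left, and the cholesterol synthesis median is 0.38 on the left and -0.37 on the right. Both panels use the same untreated 5xFAD samples, with opposite sign.

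The meninges of WT mice differed from WT HPC in 8 of the 9 genes, where 73% of the 15132 tested genes were called, 39.9% higher and 33.2% lower. Ch25h was higher in meninges by 4.38 on the log2 scale (SE 0.56), Apod by 2.78 (SE 0.39), Abca1 by 1.76 (SE 0.17), Lrp1 by 1.36 (SE 0.16), Apoe by 0.88 (SE 0.18) and Soat1 by 0.71 (SE 0.17), with edgeR adjusted p values of at most 0.000896. The Soat1 estimate lay between 0.53 and 1.33 over the alternatives run, so its size depended on the processing. Abcg1 was lower in meninges, at -1.75 on the log2 scale (SE 0.18, adjusted p = 4.18e-08), as was Lpl, at -0.89 (SE 0.30, adjusted p = 0.012). Without WT HPC replicate 3, the sample with the highest Lpl, Lpl was at -0.51 with an adjusted p of 0.105. Clu was at -0.18 (SE 0.16, adjusted p = 0.302). The median of all tested genes was itself 0.12 higher in meninges. The WT meninges samples also held markers of other tissue. Choroid plexus markers summed to 15790 to 42040 in them, against 36.8 to 2824 in WT HPC. Pineal markers summed to 197.5 to 479.6, against 0.26 to 0.63 in WT HPC. The part of such tissue in these differences was not tested.

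Per length, the order of the 9 genes thus differed between the tissues. In WT HPC, mean FPKM was 3574 for Apoe, 787 for Clu, 189.6 for Apod, 22.6 for Abcg1, 22.4 for Lpl, 10.1 for Lrp1, 6.74 for Soat1, 2.42 for Abca1 and 0.372 for Ch25h. Abcg1 and Lpl are neighbours that did not differ beyond their spread. In WT meninges it was 6956 for Apoe, 1354 for Apod, 734 for Clu, 24.5 for Lrp1, 18.8 for Soat1, 9.23 for Lpl, 8.70 for Abca1, 8.54 for Ch25h and 7.09 for Abcg1. The last 4 overlapped one another.

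In meninges, none of the 9 genes was called in any of the 3 comparisons of groups. edgeR, DESeq2 and limma each called 0 of 9, where edgeR called 0%, 0.014% and 0.014% of the 14318 tested genes in 5xFAD against WT, 5xFAD+L against 5xFAD and 5xFAD+L against WT. At an unadjusted p below 0.05 stood 0, 1 and 2 of the 9 genes, against 4.01%, 12.7% and 16.4% of all genes. The biological coefficient of variation was 0.350, against 0.198 in HPC.

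**Figure D4:**
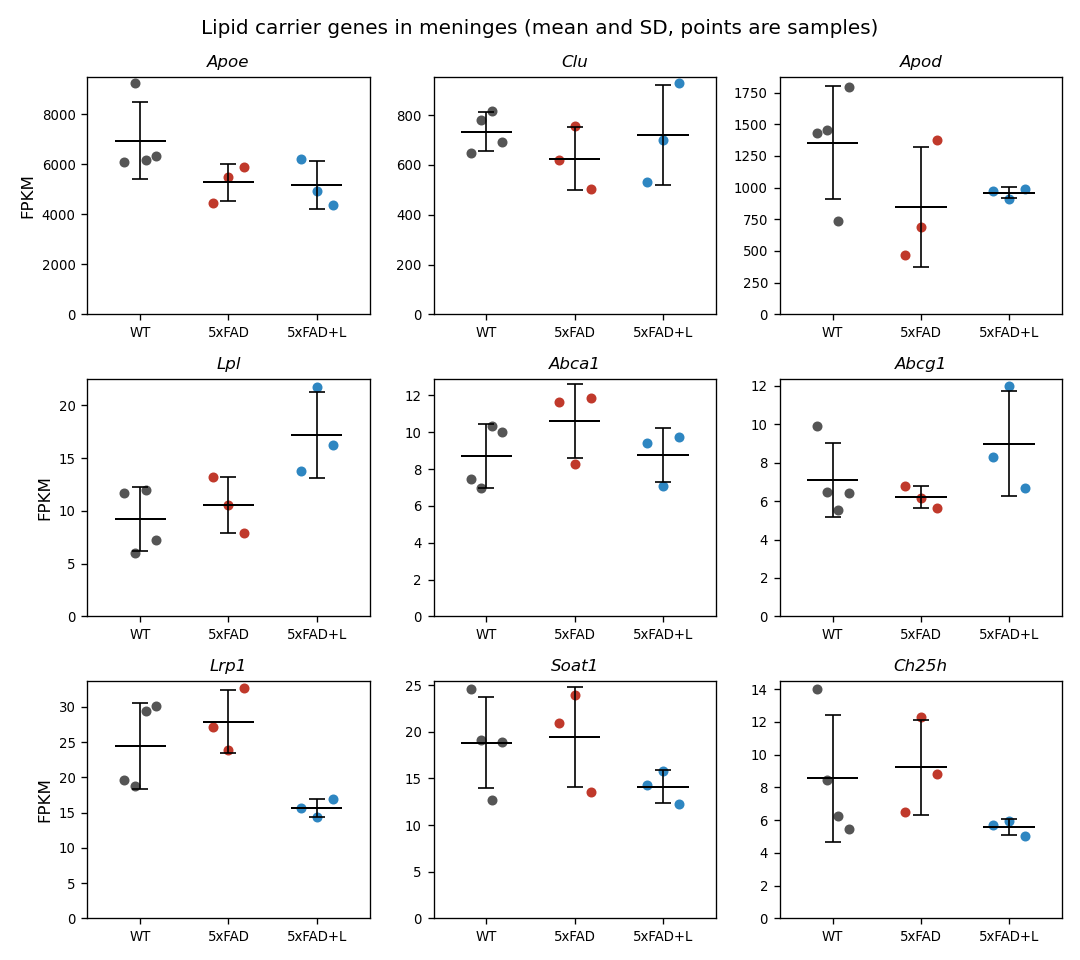
FPKM of the 9 genes in meninges of WT (n = 4), 5xFAD (n = 3) and 5xFAD+L mice (n = 3). Each point is 1 sample, horizontal lines are means and bars are SD. The 5xFAD+L points of Lpl lie above, and those of Lrp1 below, all other points.

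Apoe in meninges was 6078, 9239, 6163 and 6345 in WT, 4468, 5487 and 5885 in 5xFAD and 6216, 4944 and 4364 in 5xFAD+L samples. All 5xFAD samples were below all WT samples, the only 1 of the 9 genes so separated in this comparison, against 4.85% of all genes. The log2 fold change was -0.40 (SE 0.27, adjusted p = 0.987), opposite in sign to that in HPC. Clu was at -0.22 (SE 0.25), Apod at -0.67 (SE 0.38), Abca1 at 0.30 (SE 0.24) and Ch25h at 0.12 (SE 0.35), none past the threshold.

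Lrp1 and Lpl in light-treated meninges did not differ from the other groups past the threshold. The share of the 9 genes whose groups did not overlap was above that of all genes. With only 9 genes, such an excess cannot be judged. Lrp1 FPKM was 19.7, 18.8, 29.3 and 30.2 in WT, 27.1, 23.9 and 32.7 in 5xFAD and 15.7, 14.3 and 17.0 in 5xFAD+L samples. Its log2 fold change was -0.80 against 5xFAD (SE 0.26, adjusted p = 0.297) and -0.63 against WT (SE 0.24, adjusted p = 0.236). Lpl was 11.7, 6.01, 11.97 and 7.26 in WT, 13.2, 10.52 and 7.87 in 5xFAD and 13.7, 21.7 and 16.2 in 5xFAD+L samples. It was at 0.40 against 5xFAD (SE 0.29, adjusted p = 0.568) and 0.81 against WT (SE 0.27, adjusted p = 0.182). Lpl, Lrp1 and Ch25h did not overlap between 5xFAD+L and 5xFAD, with Ch25h at 5.69, 5.96 and 5.01 against 6.51, 12.3 and 8.83, but 20.8% of all genes did not overlap there. Against WT, Lpl and Lrp1 did not overlap, and neither did 12.3% of all genes. Without 5xFAD+L replicate 1, the sample with high leukocyte and red blood cell markers, Lrp1 was at -0.85 against 5xFAD (SE 0.31, adjusted p = 0.314) and Lpl at 0.37 (SE 0.34).

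Across the 10 meninges samples, the genes most alike to Apod by Pearson's r of log2(FPKM + 1) were Dct (r = 0.91), an enzyme of melanin synthesis, Fam149a, Fxyd6, Galnt13 and Gzmk. This is a description over samples that share groups and libraries. None of the genes of the 5 lists of lipid handling was called in meninges in any of the 3 comparisons by edgeR.

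The change of 5xFAD against WT differed between HPC and meninges for Apoe and Ch25h by a test of the difference itself, the interaction of tissue and genotype. The HPC change minus the meninges change was 1.12 on the log2 scale for Apoe (SE 0.27, edgeR adjusted p = 0.0342) and 2.93 for Ch25h (SE 0.74, adjusted p = 0.0423). These 2 of 9 stand beside 1.74% of the 15132 tested genes. Clu was at 0.87 (SE 0.23, adjusted p = 0.0613), Apod at 1.58 (SE 0.54, adjusted p = 0.17), and the other 5 genes had adjusted p values of at least 0.751. The list genes called included Trem2, Npc2 and Gpnmb, each with a larger change in HPC. Both calls depended on single samples. Ch25h alone was called without WT HPC replicate 1 or 5xFAD HPC replicate 4, Apoe alone without 5xFAD HPC replicate 2 or WT meninges replicate 1, Clu alone without 5xFAD meninges replicate 2, and Apoe with Apod without 5xFAD meninges replicate 4. None of the 9 was called without WT HPC replicate 2, 3 or 4, 5xFAD HPC replicate 1, WT meninges replicate 2 or 5xFAD meninges replicate 1. Without the 3 HPC libraries of high choroid plexus markers, again 0 of 9 were called, with Apoe at 0.94 and Ch25h at 2.05 on the log2 scale and edgeR adjusted p values of 0.254 and 0.315. With the replicate number as a block, 0 of 9 were called as well, at adjusted p values of 0.0783 and 0.0652.

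In mLECs edgeR called no difference in any of the 9 genes, whereas DESeq2 called 1 in each of the 3 comparisons, and levels varied widely between mice. The biological coefficient of variation was 1.89, and 5998 to 9020 genes per sample had a count, against 16371 to 18264 in HPC. The label of the sorted cells was borne out unevenly by the 8 lymphatic markers. Ccl21a had a mean FPKM of 2686 in WT, 2292 in 5xFAD and 6972 in 5xFAD+L samples, but was listed at 0 in at least 1 WT sample, and Prox1, which encodes the defining transcription factor, had means of 1.92, 0.347 and 2.87. Pdpn, whose protein was in the gate, was listed at 0 in at least 1 WT and 1 5xFAD sample. Markers of blood endothelium, which also carries CD31, summed to between 1278 and 3805 in the 10 samples. They exceeded the lymphatic sum in WT replicates 2 and 4 (3805 against 227 and 2232 against 302) and in 5xFAD replicates 1 and 2 (2483 against 1447 and 3635 against 2082), and in no 5xFAD+L sample. The sums rest on different genes, and the lymphatic list itself holds Pecam1, the gene of CD31. Which sum is larger therefore does not give the share of blood and lymphatic cells in a sample. The part of cell composition in the mLEC results was not tested. edgeR called 0 of the 8 tested genes in each comparison, where 0%, 0% and 0.0122% of the 8188 tested genes were called. An unadjusted p below 0.05 was reached by 1 gene in each, Lpl, Lpl and Soat1, against 3.81%, 4.01% and 6.72% of all genes, and limma called none. Over all genes, DESeq2 called 185, 357 and 464 of the 8188 in the 3 comparisons.

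**Figure D5:**
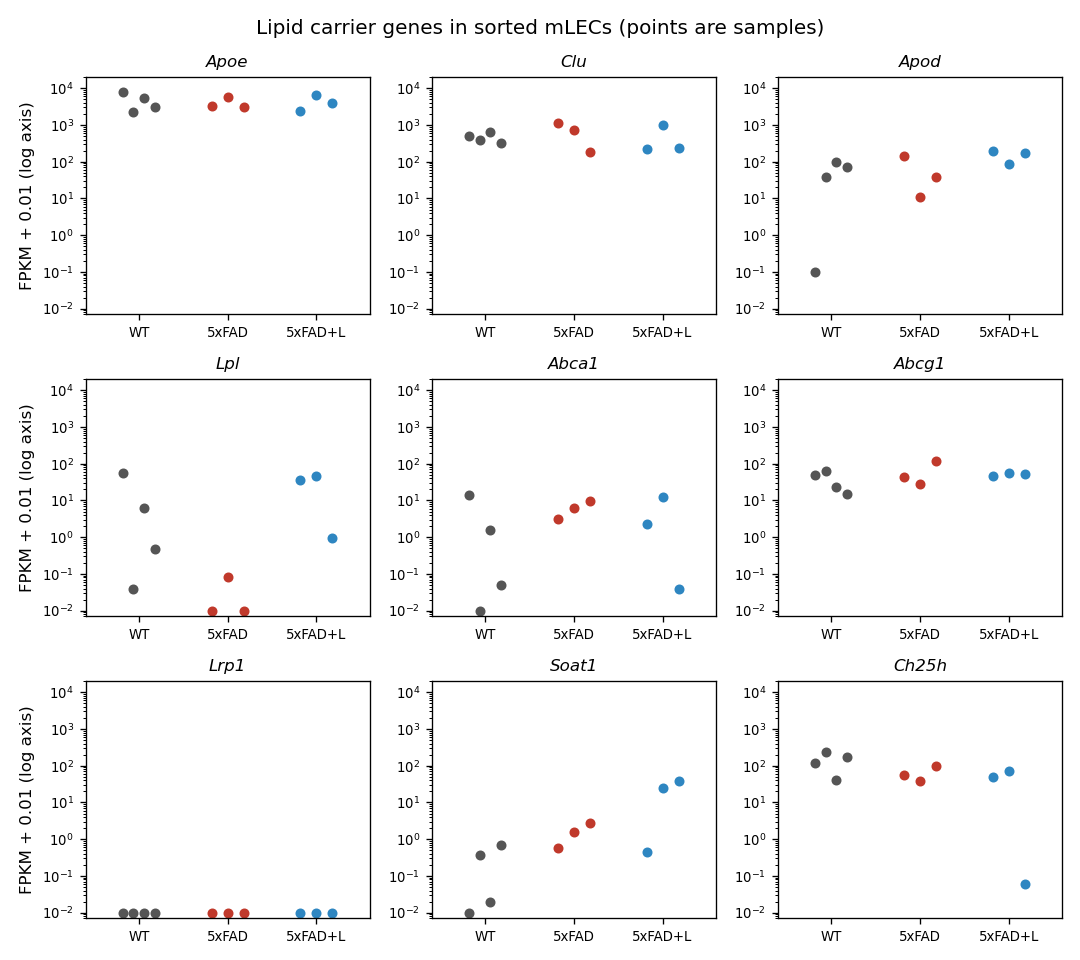
FPKM of the 9 genes in sorted mLECs of WT (n = 4), 5xFAD (n = 3) and 5xFAD+L mice (n = 3), on a log axis after adding 0.01. Each point is 1 sample, and points at the bottom are listed at 0. Apoe and Clu are high in all 10 samples, whereas Lpl, Abca1 and Soat1 range from near 0 to over 10.

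Apoe was again the most abundant, from 2253 to 7779 in WT, 3094 to 5889 in 5xFAD and 2359 to 6562 in 5xFAD+L samples. Clu ranged from 313 to 649, from 185 to 1126 and from 225 to 1011. Abcg1 was between 15.3 and 120.5 in all 10 samples. Ch25h was 119, 235, 42.1 and 178 in WT, 56.9, 38.3 and 96.5 in 5xFAD and 49.6, 70.8 and 0.05 in 5xFAD+L samples, so it was at or above 38.3 in every sample but 1. The mLEC table was normalized separately from that of the tissues, and no test was made between them, but in HPC and meninges Ch25h did not exceed 14.01.

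Lpl in mLECs was nearly absent from the 5xFAD samples. It had 2632, 1, 196 and 46 counts in WT, 0, 2 and 0 in 5xFAD and 1502, 2507 and 61 in 5xFAD+L samples, and WT replicate 2 lay at the level of the 5xFAD samples. DESeq2 called it lower in 5xFAD than WT (adjusted p = 0.000557) and higher in 5xFAD+L than 5xFAD (adjusted p = 0.000279), where edgeR gave adjusted p values of 1.00 and 1.00. Soat1 FPKM was 0, 0.37, 0.01 and 0.67 in WT, 0.56, 1.60 and 2.73 in 5xFAD and 0.45, 24.2 and 38.5 in 5xFAD+L samples, and DESeq2 called it higher in 5xFAD+L than WT (adjusted p = 0.0172, against 0.74 with edgeR). Abca1 was 13.7, 0, 1.56 and 0.04, then 3.03, 6.14 and 9.91, then 2.33, 12.2 and 0.03 in these groups. Apod was 0.09 in WT replicate 1 and between 10.9 and 192 in the other 9 samples. Lrp1 was listed at 0 in all 10 samples, with 1 count in WT replicate 2 and none in the others, and was not tested. The DESeq2 calls of Lpl and Soat1 were among the 185, 357 and 464 genes that DESeq2 called in the 3 comparisons. Lpl was below an FPKM of 1 in every 5xFAD sample, and Soat1 in every WT sample. Each thus met the filter, an FPKM of 1 or more in 3 or more samples, only through groups in which it was higher. Without the 2 WT libraries of low lymphatic markers edgeR called 0 of 7607 tested genes in each comparison, against 0, 0 and 1 with all libraries.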

How the data were processed

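RNA-seq of 32 samples was analysed. The authors made Smart-seq2 libraries, filtered reads with fastp and quantified genes with RSEM, according to the study's methods, whereas the submitters' processing notes name mm10, Trimmomatic, HISAT2, StringTie and DESeq2. The authors deposited estimated counts, which were treated here as RSEM expected counts without normalization, and FPKM values, scaled by transcript length and library size. Counting was not stated to use strand.

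After rounding, counts were scaled by TMM and compared by the quasi-likelihood test of edgeR 4.0.16 in R 4.3.3, in 1 fit per tissue over its 3 groups. A gene was tested where 3 or more samples of the tissue had an FPKM of 1 or more. P values were adjusted over all tested genes by the Benjamini-Hochberg method and called below 0.05. All samples of HPC and meninges, including those of 5xFAD+L mice, were fitted together for the tissue comparisons. The edgeR steps were also run on simulated counts with known changes. The recovery is not reported here, so no measure of power is given. Alternatives were DESeq2 1.42.0, limma 3.58.1 on log2(FPKM + 1) and log2(FPKM + 0.1), median-of-ratios scaling, no filter, the compared groups alone, a replicate block, the 2-fold rule and leaving out each replicate. Fits without libraries whose marker sum was over (choroid plexus, HPC) or under (lymphatic, mLECs) 1000 were added after seeing the data, as was the replicate block of the tissue comparisons.

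The 9 genes, the lists and the motifs were chosen with earlier results of these data known. Named list genes were at most 4 per list and comparison with the smallest adjusted p, and Gramd1b, outside that rule, was named after its value was seen as the only list gene that fell. Some genes these rules select are not reported here. Positions are from GENCODE vM21 (GRCm38), matched by gene identifier.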

Additional observations from a re-analysis of the deposited data

Results flagged for a closer look

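Among 45 groups of 4 samples, 5 held a sample far from the other 3, where chance flags about 1 in 20. Apoe in WT meninges was 9239 FPKM in replicate 2, against 6078 to 6345 in the other 3. Apod in 5xFAD HPC was 578 FPKM in replicate 1, against 262 to 307, and that sample also had the highest choroid plexus and microglial marker sums of its group. Soat1 in WT HPC was 7.60 FPKM in replicate 2, against 6.40 to 6.51. In WT mLECs, Lpl was 55.5 FPKM in replicate 1, against 0.03 to 6.04, and Abca1 was 13.7 FPKM in the same sample, against 0 to 1.56.

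The change of 5xFAD against WT differed between HPC and meninges, by the test of the interaction, for Apoe by 1.12 and for Ch25h by 2.93 on the log2 scale, but 0 of the 9 genes were called without the 3 HPC libraries of high choroid plexus markers (adjusted p = 0.254 and 0.315 for these genes with edgeR), with the replicate block, or when any of 6 samples was left out.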

How the results depend on the processing

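In HPC of 5xFAD against WT, 4 of the 9 genes were called with edgeR, and also with median-of-ratios scaling, without the filter, with DESeq2 and with the replicate block. The count was 3 with limma and with the compared groups alone (all but Abca1), 3 to 5 when 1 replicate was left out, 2 without the 3 libraries of high choroid plexus markers and 1 with the 2-fold rule. For 5xFAD+L against WT the 2 calls became 3 with DESeq2 and the compared groups alone, 1 without the 3 libraries or with the 2-fold rule, and 0 to 3 with 1 replicate left out. The 2 tissue differences became 1 without the filter (Ch25h), 1 with limma (Apoe), 0 with the replicate block, 0 without the 3 libraries and 0 to 2 with 1 replicate left out. In mLECs, DESeq2 called 1 of the 9 genes in each comparison where edgeR called 0. Over all mLEC genes, DESeq2 called 185, 357 and 464, against 0, 0 and 1 with edgeR. The 0 calls of 5xFAD+L against 5xFAD in HPC and of all 3 comparisons in meninges were 0 under every alternative run, and WT meninges against WT HPC kept 8, or 7 to 8 with 1 replicate left out. Among the fold changes of single genes given in the report, which are those of HPC, of meninges and, for the tissue difference, of Apoe, Clu, Apod and Ch25h, 446 estimates under alternatives other than leaving out a replicate kept direction and side of the threshold, 12 lost a call, 2 gained one and 10 changed sign. None of the 10 was a called difference, and the cause was not tested.

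The sign changes on the log2 scale were these. Without the 3 libraries, Lpl in 5xFAD against WT HPC was -0.23, and in 5xFAD+L against 5xFAD Lrp1 was 0.019 and Ch25h 0.69. With limma on log2(FPKM + 1) and log2(FPKM + 0.1), Lrp1 was -0.023 and -0.025 in 5xFAD against WT HPC and 0.073 and 0.080 in 5xFAD+L against 5xFAD. Without the filter, Apoe in 5xFAD+L against 5xFAD meninges was 0.044, and Clu in 5xFAD+L against WT meninges was 0.0066. With 1 replicate left out, HPC estimates ranged from -0.042 to 0.54 for Lpl in 5xFAD against WT. In 5xFAD+L against 5xFAD HPC they ranged from -0.0055 to 0.41 for Lpl, from -0.13 to 0.014 for Lrp1 and from -0.42 to 0.38 for Ch25h. In 5xFAD+L against WT HPC the range was -0.43 to 0.12 for Apod and -0.0011 to 0.070 for Soat1. In meninges it was -0.15 to 0.45 for Ch25h in 5xFAD against WT. In 5xFAD+L against 5xFAD meninges it was -0.23 to 0.072 for Apoe, -0.10 to 0.35 for Clu and -0.13 to 0.72 for Apod. In 5xFAD+L against WT meninges it was -0.32 to 0.11 for Clu and -0.10 to 0.22 for Abca1.

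Samples of different groups share replicate numbers, but same-numbered samples deviated from their group means with correlations of -0.31 to 0.24 within a tissue and -0.044 to 0.16 between HPC and meninges, so the numbers were not taken as pairs. With the replicate block, 4, 0 and 2 of the 9 genes were called in the 3 HPC comparisons, as without it, and Ch25h in 5xFAD+L against 5xFAD was 0.11. The block lowered the calls among all genes of 5xFAD against WT HPC from 1108 to 840.

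The number of all genes called in HPC was 1721 with DESeq2 against 1108 with edgeR in 5xFAD against WT, 641 against 59 in 5xFAD+L against 5xFAD (1 with the compared groups alone, 0 to 269 with 1 replicate left out), and 873 against 466 in 5xFAD+L against WT. With 3 or 4 mice per group and few Ch25h counts in WT HPC, small differences could not be told from 0, above all in meninges and mLECs.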
